A study of Mus musculus with 5 samples.

Results

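The imprinted fetal growth genes examined here were H19, Dlk1, Meg3 (named GTL2 on the array), Plagl1, Grb10, Peg3, Mest, Nnat, Ndn and Sgce. They are 10 of the 29527 gene names on the array, and every probe carrying 1 of these names was taken, which gave 26 of 45281 probes. Gene expression was measured in 2 pools of Dicer cKO uteri (pools 10 and 12) and 3 pools of wild type control uteri (pools 7, 9 and 11), with 1 Illumina bead array for each pool. All mice were 15 days old and of a C57BL/6J;129S5/Brd mixed hybrid background. In the Dicer cKO mice, Dicer was deleted by a Cre recombinase under the progesterone receptor promoter, so only cells with progesterone receptor activity, and their descendants, are open to the deletion. The labels give neither the number of uteri in a pool nor whether the controls carried a floxed Dicer allele. The p-values therefore measure only pool-to-pool spread. A human BeadChip is named in the labels, yet the gene names in the files are those of mouse genes.

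Imprinted genes are transcribed mainly from the copy inherited from 1 parent, under control of DNA methylation marks set in the germ line. They lie in clusters, and many act on growth before birth: several paternally expressed members such as Dlk1, Mest and Peg3 are tied to growth and nutrient use, while the maternally expressed H19 and Grb10 restrain it. As a group they are highly expressed in fetal tissues and are turned down as organs mature after birth, and a uterus at 15 days is still maturing. Dicer cuts hairpin precursors into mature microRNAs, and 3 of the 10 genes carry such hairpins inside their own transcripts.

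Those hairpin hosts were H19, Meg3 and Mest, and 7 mature microRNAs mapped within them in RefSeq (GRCm38.p6). Their mature sequences are shown because they are the Dicer products that lie within these genes, with the seed, bases 2 to 8, in capitals, written 5′ to 3′. The first pair comes from H19, on the minus strand at chr7:142577112-142577133 and chr7:142577078-142577099.
mmu-miR-675-5p: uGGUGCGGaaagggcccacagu
mmu-miR-675-3p: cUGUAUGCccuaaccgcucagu
The next pair lies on the plus strand within Mest, at chr6:30741314-30741336 and chr6:30741354-30741375.
mmu-miR-335-5p: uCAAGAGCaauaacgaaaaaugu
mmu-miR-335-3p: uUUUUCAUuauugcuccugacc
The last 3 lie on the plus strand within Meg3, at chr12:109563710-109563731, chr12:109563744-109563765 and chr12:109544588-109544609.
mmu-miR-770-5p: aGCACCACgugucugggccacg
mmu-miR-770-3p: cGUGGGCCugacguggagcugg
mmu-miR-1906: uGCAGCAGccugaggcagggcu
No 2 of these 7 shared a seed.

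The hairpin from which Dicer releases the H19 pair is shown with both mature arms in capitals, from chr7:142577064-142577147 on the minus strand.
Mir675: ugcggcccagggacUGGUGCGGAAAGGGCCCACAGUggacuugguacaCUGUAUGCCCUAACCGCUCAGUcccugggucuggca
The Mest hairpin, at chr6:30741299-30741396 on the plus strand, is given in the same way.
Mir335: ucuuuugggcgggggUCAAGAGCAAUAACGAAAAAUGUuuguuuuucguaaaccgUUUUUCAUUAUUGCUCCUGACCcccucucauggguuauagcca
The arrays measured the host transcripts, not the mature microRNAs.

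The array intensities were background-corrected, quantile-normalized and put on a log2 scale, and all levels below are log2 signals on that scale. A probe was measured where its detection p was under 0.05 on at least 2 of the 5 arrays. This held for 15 of the 26 probes (57.7%), against 22845 of all 45281 probes (50.5%). These 15 probes covered 8 of the 10 genes, Plagl1 and Sgce being the exceptions. Between 47.0% and 49.5% of all probes were detected on each array, with a median of 44 beads behind each intensity. Log2 signals correlated across probes at 0.992 to 0.994 between pools of 1 group, and at 0.977 to 0.989 between groups. Probes of 1 gene share that gene's transcripts and were not counted as replicates.

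The targeted gene was checked in every pool. The Dicer1 probe listed as D12ERTD7E gave 8.62 and 8.75 in Dicer cKO pools, against 9.15, 9.08 and 9.12 in control pools. The groups did not overlap, and the difference was -0.43 ± 0.09 (SE; adjusted p = 0.0233, limma). The probe listed as DICER1 gave 6.96 and 6.92 in Dicer cKO pools against 6.99, 7.20 and 7.30 in control pools, and did not pass (adjusted p = 0.392, limma). The files do not say whether either probe lies in the deleted stretch. Pgr, whose promoter drives the Cre, fell, with 7.65 and 7.88 in Dicer cKO pools and 8.31, 8.72 and 8.56 in control pools (-0.77 ± 0.14 (SE); adjusted p = 0.0079, limma).

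Among the imprinted genes, Nnat rose clearly in Dicer cKO uteri, H19 and Mest were higher with calls on part of their probes, and Grb10 differed by 0.28 on the log2 scale without passing the test. Dlk1, Meg3, Peg3 and Ndn differed by less than the spread between pools. With each gene represented by its brightest measured probe, 1 of 8 genes rose (Nnat) and none fell at an adjusted p under 0.05 over all measured probes. Over all 15733 measured genes, 6.57% were called, 2.68% of them higher and 3.88% lower as shares of all genes. The median difference of the 8 genes was 0.17 on the log2 scale, beside 0.015 over all genes. In 4 of the 8 genes (H19, Grb10, Mest and Nnat) both Dicer cKO pools lay above every control pool, against 19.9% of all genes, and the groups did not overlap in either direction in 37.6% of all genes.

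At the level of probes, 3 of the 15 measured probes were called, all higher in Dicer cKO pools, against 5.87% of all measured probes (2.35% higher and 3.52% lower). Unadjusted p-values under 0.05 were found for 8 of the 15 probes, against 19.6% of all measured probes. In 9 of the 15 probes both Dicer cKO pools lay above all 3 control pools, and in none did both lie below. The 9 were every measured probe of H19, Grb10, Mest and Nnat, and the dim Meg3 probe 4120414. Several thus come from 1 gene. Over all measured probes the groups did not overlap in 36.7%, with the Dicer cKO pools higher in 19.6% and lower in 17.1%. Dicer cKO pool 10 gave the highest of the 5 values for 12 of the 15 probes and lay above Dicer cKO pool 12 for 13. The share of all measured probes highest in pool 10 was not counted. Over all measured probes, pool 10 correlated with control pools at 0.977 to 0.984, and pool 12 at 0.984 to 0.989.

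**Figure D1:**
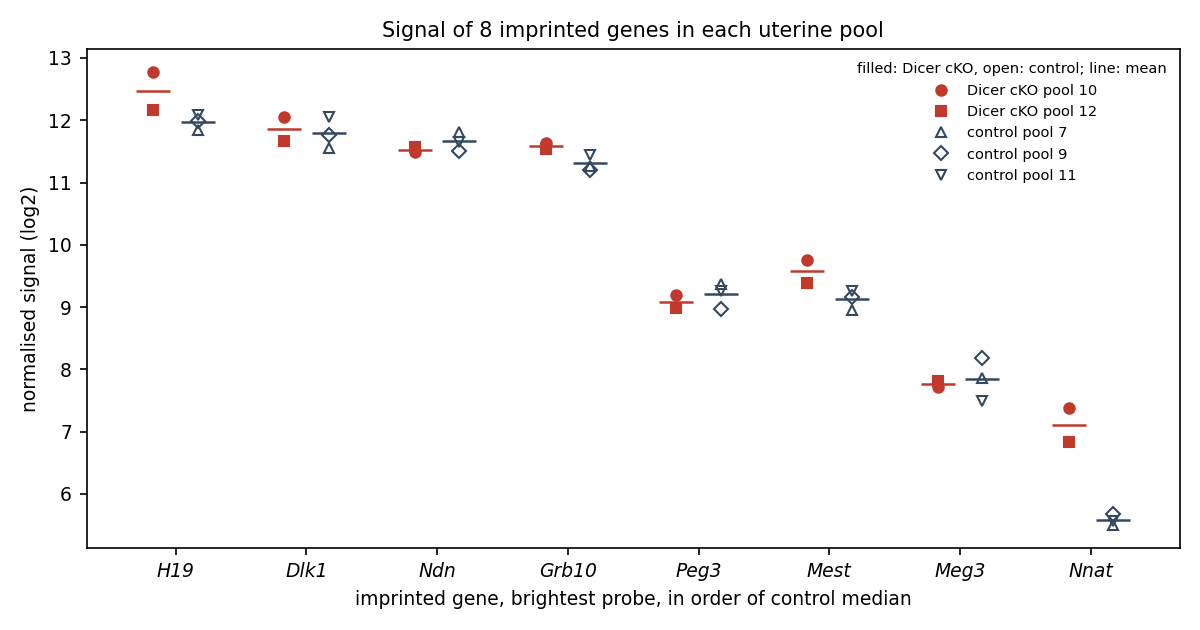
Log2 normalized signal (vertical axis) of the measured probe with the highest mean for each of 8 imprinted genes, in Dicer cKO pools (left of each pair) and control pools (right), 1 point a pool, with a line at each mean. Both Dicer cKO pools lie above all 3 control pools for H19, Grb10, Mest and Nnat, with the widest gap for Nnat.

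In control uteri the order of the brightest probes by median log2 signal was H19, Dlk1, Ndn, Grb10, Peg3, Mest, Meg3 and Nnat. The medians over control pools were 11.98 for H19, 11.76 for Dlk1, 11.66 for Ndn and 11.27 for Grb10. Peg3 followed at 9.26, Mest at 9.15, Meg3 at 7.87 and Nnat at 5.56. The control ranges of H19 and Dlk1, of Dlk1 and Ndn, and of Peg3 and Mest overlapped, so these neighbours in the order did not differ beyond the spread of the pools. Brightness also depends on the probe, so the order is one of signal and does not rank transcript abundance. On the control arrays the brightest H19 probe stood between the 98.6 and 98.9 percentile of all probes, while the measured Nnat probe stood between 60.4 and 62.7.

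Nnat encodes neuronatin, a small protein of the endoplasmic reticulum membrane known from developing brain, endocrine cells and fat, where it is linked to calcium handling. Its measured probe (7570609) gave 7.38 and 6.83 in Dicer cKO pools 10 and 12, against 5.50, 5.68 and 5.56 in control pools 7, 9 and 11. Both Dicer cKO pools were high and the groups lay far apart, although the Dicer cKO pools differed more between themselves than the controls did. The mean was 7.10 ± 0.38 in Dicer cKO pools (SD, n = 2) and 5.58 ± 0.09 in control pools (SD, n = 3). The difference was 1.52 ± 0.17 (SE; 95% interval 1.15 to 1.90), a 2.88-fold higher signal (adjusted p = 0.00059, limma). Of all 22845 measured probes, 0.512% differed by a larger amount in either direction.

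The deposited intensities behind this probe were 182.6 and 146.2 in Dicer cKO pools, against 80.7, 84.2 and 73.9 in control pools. The standard error over beads was 4.5% and 4.4% of those intensities in Dicer cKO pools, and 6.5%, 4.5% and 4.7% in control pools, so the gap between groups exceeded the bead error on every array. Of the other Nnat probes, 6980167 had intensities of 61.9 and 56.1 in Dicer cKO pools, against 48.6, 53.0 and 49.6 in control pools. It was detected only in Dicer cKO pool 10 and was not tested, though its groups did not overlap either. The remaining Nnat probes, 5310382 and 2360541, were not well above background on any array, so the call for Nnat rests on 1 probe of 4.

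**Figure D2:**
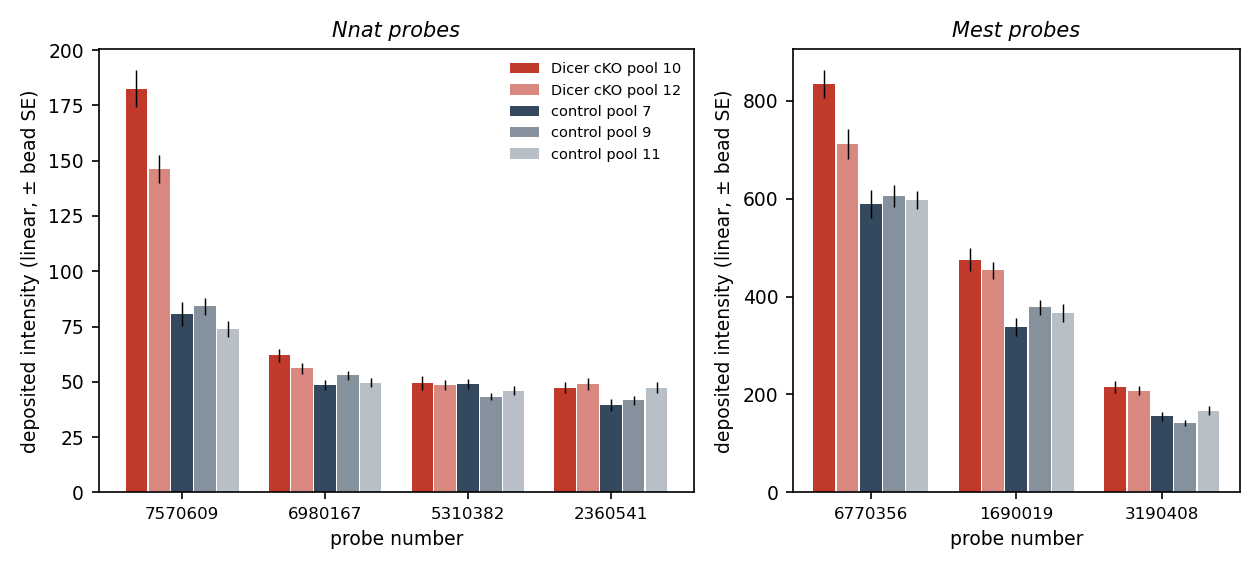
Deposited mean bead intensity on a linear scale (vertical axis) of the 4 Nnat probes (left panel) and the 3 Mest probes (right panel), by probe number. Bars within a probe are Dicer cKO pools 10 and 12 (red) and then control pools 7, 9 and 11 (blue to grey), with lines for the standard error over beads. Probe 7570609 stands at 182.6 and 146.2 in Dicer cKO pools, above every control pool, the other Nnat probes lie near the detection limit, and every Mest probe is brighter in both Dicer cKO pools than in any control pool.

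H19 is a maternally expressed noncoding RNA that shares enhancers with the growth factor gene Igf2 and hosts the miR-675 hairpin shown above. Its brightest probe (3290056) gave 12.78 and 12.16 in Dicer cKO pools and 11.85, 11.98 and 12.09 in control pools. Its other probe (1440543) gave 12.16 and 11.66 in Dicer cKO pools, against 11.18, 11.32 and 11.56 in control pools. For both probes Dicer cKO pool 10 stood well above the rest, while pool 12 was only just above the highest control. The difference was 0.49 ± 0.15 (SE) for probe 3290056, which did not pass (adjusted p = 0.0870, limma). It was 0.56 ± 0.14 (SE), a 1.48-fold higher signal, for probe 1440543, which passed narrowly (adjusted p = 0.0488, limma). That call was lost under 9 of 13 other settings, and without Dicer cKO pool 10 the differences were 0.18 for probe 3290056 and 0.31 for probe 1440543. The adjusted p of probe 1440543 was then 0.419, and it was 0.152 without control pool 7 and 0.119 without control pool 9 (limma). Without Dicer cKO pool 12, probe 3290056 passed at 0.81 (adjusted p = 0.0052, limma).

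Meg3 is the maternally expressed noncoding RNA of the Dlk1 cluster and the host of miR-770 and miR-1906. Its brightest probe (6940750) gave 7.72 and 7.82 in Dicer cKO pools, against 7.87, 8.18 and 7.50 in control pools. Both Dicer cKO pools lay inside the control range, and the difference was -0.08 ± 0.17 (SE; 95% interval -0.46 to 0.31; adjusted p = 0.865, limma). A dim second probe (4120414) lay between 4.65 and 5.06 over all pools, with a difference of 0.16 ± 0.15 (SE) and no call (adjusted p = 0.631, limma). Its groups did not overlap, but only barely, with 5.004 in Dicer cKO pool 12 and 5.003 in control pool 7. The other Meg3 probes, 6110544 and 3180347, were not measured.

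Dlk1, a paternally expressed transmembrane protein of the Notch ligand family that holds back fat cell differentiation, lies next to Meg3. Its brightest probe (4260241) gave 12.06 and 11.66 in Dicer cKO pools, against 11.56, 11.76 and 12.05 in control pools. Its second probe (2850020) gave 11.07 and 10.56 in Dicer cKO pools and 10.09, 10.60 and 10.97 in control pools. The groups overlapped on both probes, and on both the control pools alone spread widely. The differences were 0.07 ± 0.14 (SE; 95% interval -0.25 to 0.39) and 0.26 ± 0.22 (SE; 95% interval -0.22 to 0.75), with adjusted p-values of 0.850 and 0.574 (limma).

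Grb10 encodes an adaptor that binds the insulin and IGF1 receptors and dampens their signal. Probe 4260433 gave 11.63 and 11.54 in Dicer cKO pools, against 11.27, 11.21 and 11.44 in control pools. Probe 6520368 gave 7.60 and 7.55 in Dicer cKO pools and 7.04, 7.49 and 7.19 in control pools. The groups did not overlap on either of these measured probes, and the Dicer cKO pools lay close together. The differences were 0.28 ± 0.09 (SE) and 0.34 ± 0.14 (SE), and neither passed (adjusted p = 0.103 and 0.218, limma). Probe 4260433 passed without control pool 11 (0.35; adjusted p = 0.0499, limma). The remaining Grb10 probe, 7000592, was detected on no array and was not tested.

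Mest encodes a protein of the endoplasmic reticulum related to hydrolases, is widely transcribed in fetal mesoderm, and hosts miR-335. All 3 Mest probes were measured. The brightest (6770356) gave 9.76 and 9.39 in Dicer cKO pools and 8.96, 9.15 and 9.26 in control pools. Probe 1690019 gave 8.90 and 8.71 in Dicer cKO pools, against 8.10, 8.42 and 8.51 in control pools. Probe 3190408 gave 7.66 and 7.45 in Dicer cKO pools and 6.79, 6.74 and 7.21 in control pools. The order was the same on each probe: pool 10 highest, pool 12 next, and all controls below.

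The Mest differences were 0.45 ± 0.13 (SE), 0.47 ± 0.13 (SE) and 0.64 ± 0.16 (SE) for probes 6770356, 1690019 and 3190408. Only probe 3190408 passed, at a 1.56-fold higher signal (adjusted p = 0.0421, limma), while the others stood at adjusted p = 0.0741 each. That call was lost under 7 of 13 other settings, among them the fits without Dicer cKO pool 10 or 12 (adjusted p = 0.334 and 0.0743, limma) and without control pool 7 or 9 (adjusted p = 0.135 and 0.129, limma). Probe 6770356 passed without Dicer cKO pool 12 (0.63; adjusted p = 0.0334, limma).

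Peg3 is a paternally expressed zinc finger protein that binds DNA. Its brightest probe (2690435) gave 9.19 and 8.99 in Dicer cKO pools, against 9.38, 8.97 and 9.26 in control pools. Its second measured probe (5910241) gave 6.28 and 5.89 in Dicer cKO pools and 6.21, 6.02 and 6.10 in control pools. Groups overlapped on both, with differences of -0.11 ± 0.13 (SE) and -0.03 ± 0.15 (SE) (adjusted p = 0.696 and 0.956, limma). The remaining Peg3 probe, 1430441, was detected on no array and was not tested. Ndn, which encodes the MAGE family protein necdin, gave 11.48 and 11.56 in Dicer cKO pools and 11.81, 11.51 and 11.66 in control pools. Its difference was -0.14 ± 0.09 (SE; 95% interval -0.34 to 0.07; adjusted p = 0.469, limma), and the groups overlapped.

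Plagl1, a zinc finger transcription factor that acts on other imprinted genes, had 3 probes, with intensities between 34.8 and 53.5 over all pools. Sgce, the epsilon-sarcoglycan of the dystrophin-associated membrane complex, had 1 probe with intensities of 36.7 and 38.0 in Dicer cKO pools, against 41.4, 45.8 and 43.2 in control pools. None of these probes was well above background on any array, so no fold is given. Their signals lay below the dimmest detected signal of every array, which ran from 59 to 63.6. Plagl1 and Sgce transcripts were therefore not detectable with these probes, whatever their true level.

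**Figure D3:**
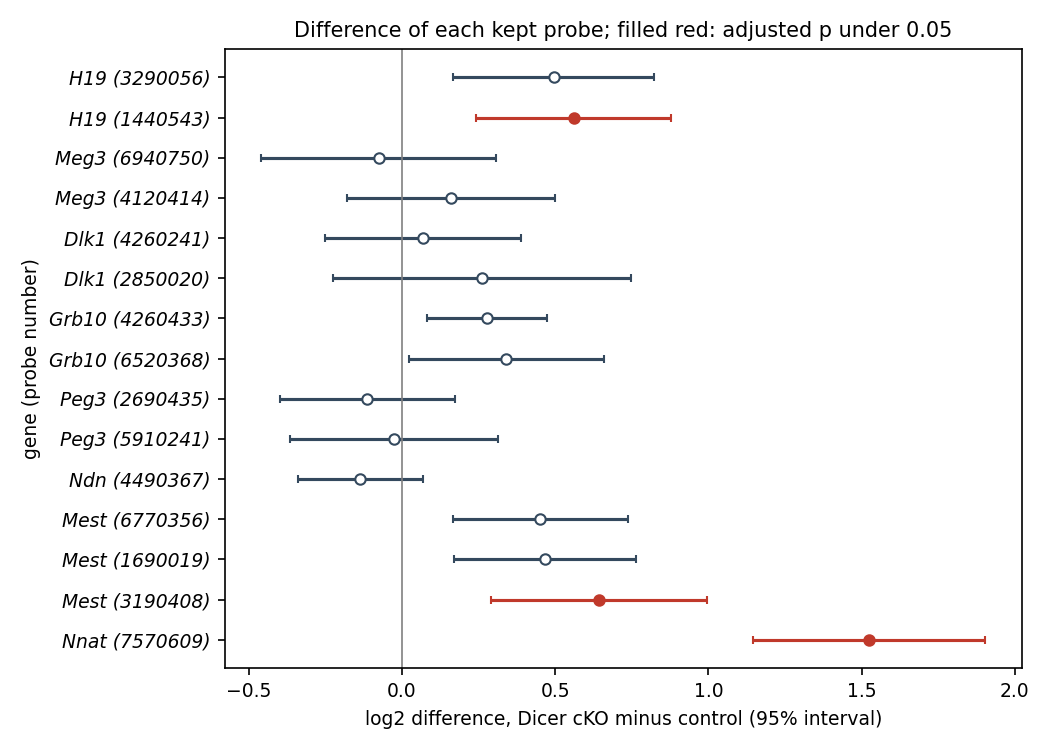
Difference in log2 signal, Dicer cKO minus control (horizontal axis), of the 15 measured probes of the imprinted genes, with bars for the 95% interval of the fit and red for an adjusted p under 0.05. The Nnat probe lies at 1.52, the H19, Grb10 and Mest probes lie to the right of 0, and the Dlk1, Meg3, Peg3 and Ndn intervals include 0.

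The promoters of Nnat and Mest are shown because each gene has a called probe and both are controlled by methylated CpG sites near their starts. For Mest this was only probe 3190408, with a call that many other settings lost, and its brightest probe did not pass. The sequences are RefSeq windows of GRCm38.p6 on the plus strand, each 300 bases long and spanning an annotated start. Matches to the ZFP57 motif TGCCGC, or GCGGCA on the other strand, are in capitals. ZFP57 is the zinc finger protein that holds methylation at imprinted sites. The Nnat window is chr2:157559828-157560127, and the Mest window, its second of 3, is chr6:30737800-30738099.
Nnat promoter: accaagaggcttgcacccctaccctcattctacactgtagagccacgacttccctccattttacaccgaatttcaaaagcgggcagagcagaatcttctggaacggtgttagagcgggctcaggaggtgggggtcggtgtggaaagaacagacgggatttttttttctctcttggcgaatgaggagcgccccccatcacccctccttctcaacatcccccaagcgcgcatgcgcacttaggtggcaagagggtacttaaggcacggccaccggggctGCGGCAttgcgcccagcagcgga
Mest promoter: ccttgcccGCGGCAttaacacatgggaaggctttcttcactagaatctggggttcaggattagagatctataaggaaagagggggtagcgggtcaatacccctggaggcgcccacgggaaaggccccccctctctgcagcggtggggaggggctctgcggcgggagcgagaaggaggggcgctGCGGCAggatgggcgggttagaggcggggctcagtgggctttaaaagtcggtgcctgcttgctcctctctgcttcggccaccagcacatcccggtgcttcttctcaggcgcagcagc
Each window shown held 17 CpG sites, while the median over 32851 mouse windows was 7. Mest window 1, not shown, held 8 CpG sites and no ZFP57 match. The ZFP57 letters occurred in the windows of 5 of the 8 genes with a promoter entry. By window this was 6 of 12, against 11.6% of all windows, but Mest windows 2 and 3 overlap almost fully and hold the same matches. The PLAGL1 motif GGGGCCCC, which reads the same on both strands, occurred in 1 of the 12 windows, that of Peg3, against 1.08% of all windows. The motifs do not overlap. Neither share over all windows was matched for CpG or GC content, and the ZFP57 letters themselves hold a CpG. A match is a description of the letters, and the arrays did not measure methylation or binding. H19 and Sgce had no promoter entry.

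Imprinted genes lie in clusters, so the genes beside each member were read as well. Of 35 listed neighbours, 21 were measured. None rose and 1 fell (over all measured genes, 2.68% rose and 3.88% fell), and the neighbours' median difference was -0.004. The gene that fell was Cobl, an actin nucleator next to Grb10. It gave 7.00 and 7.26 in Dicer cKO pools, against 8.61, 8.12 and 8.08 in control pools, with the groups well apart. The difference was -1.14 ± 0.17 (SE; adjusted p = 0.0027, limma), opposite in sign to that of Grb10, and without Dicer cKO pool 10 it no longer passed (adjusted p = 0.0613, limma).

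Igf2, the paternally expressed growth factor beside H19, gave 12.99 and 12.64 in Dicer cKO pools and 12.50, 12.47 and 12.63 in control pools. Pool 12 stood barely above the highest control, and the difference of 0.28 ± 0.10 (SE) did not pass (adjusted p = 0.15, limma). Blcap, the gene in whose intron Nnat lies, gave 10.17 and 10.12 in Dicer cKO pools, against 9.81, 9.90 and 10.00 in control pools. Its difference of 0.24 ± 0.09 (SE) did not pass (adjusted p = 0.153, limma) and stands beside 1.52 for Nnat; the difference between these genes was not tested. Cep41, near Mest, differed by 0.41 ± 0.12 (SE; adjusted p = 0.0673, limma).

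In the other clusters, the measured neighbour with the strongest statistic was Wdr25 for Dlk1 and Meg3, Ltv1 for Plagl1, Mkrn3 for Ndn and Pon3 for Sgce. None of these passed, with adjusted p-values of 0.694, 0.506, 0.406 and 0.370 (limma). The imprinted neighbours Snrpn, beside Ndn, and Peg10, beside Sgce, each differed by -0.01 on their brightest probes. Their second measured probes differed by 0.11 for Snrpn and -0.22 for Peg10, without a call. No neighbour of Peg3 was measured.

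**Figure D4:**
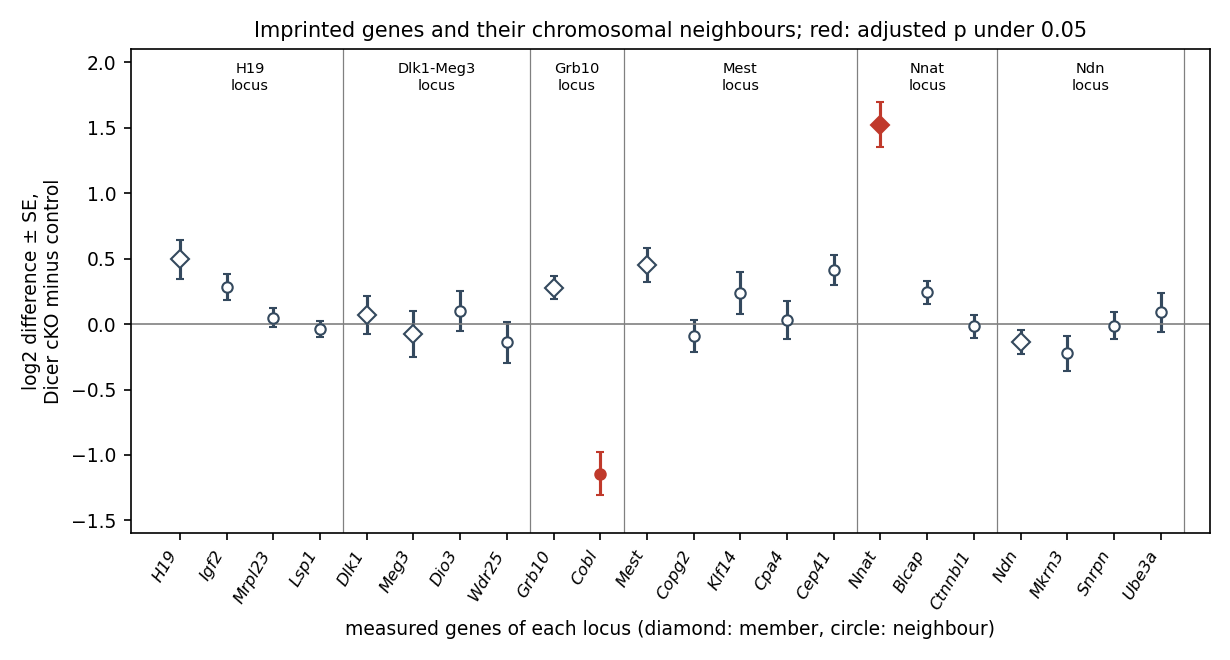
Difference in log2 signal, Dicer cKO minus control (vertical axis), of imprinted genes and the measured genes beside them, grouped by cluster, with bars for the standard error of the fit. Diamonds are the imprinted genes examined, circles are their neighbours, and red marks an adjusted p under 0.05; clusters without a measured member or neighbour are left out. Nnat lies at 1.52 and Blcap beside it at 0.24, and Cobl lies below 0 while Grb10 lies above it.

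Of 29 other imprinted genes, 23 were measured, of which 1 rose and 2 fell, with a median difference of -0.04. Over all measured genes, 2.68% rose and 3.88% fell. Igf2r, the maternally expressed receptor that clears IGF2, rose, with 10.13 and 10.08 in Dicer cKO pools and 9.63, 9.60 and 9.68 in control pools (0.47 ± 0.08 (SE); adjusted p = 0.0081, limma). Slc22a18, a membrane transporter, fell, with 6.77 and 6.74 in Dicer cKO pools, against 7.71, 7.45 and 7.48 in control pools (-0.79 ± 0.13 (SE); adjusted p = 0.0045, limma). Kcnq1, a potassium channel gene of the same cluster, fell too, with 5.51 and 5.52 in Dicer cKO pools and 6.17, 6.33 and 6.30 in control pools (-0.75 ± 0.13 (SE); adjusted p = 0.0078, limma). The groups were well apart for all 3 genes. Without Dicer cKO pool 10 none of these 3 passed, with adjusted p-values of 0.0868 for Igf2r, 0.0503 for Slc22a18 and 0.0805 for Kcnq1 (limma), while the differences were 0.44, -0.81 and -0.75.

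Of 12 listed genes that set or keep imprints, 9 were measured, and 2 rose and none fell, with a median difference of 0.24. Over all measured genes, 2.68% rose and 3.88% fell. Dnmt3b, a DNA methyltransferase, gave 9.40 and 9.11 in Dicer cKO pools, against 8.67, 8.84 and 8.67 in control pools (0.53 ± 0.11 (SE); adjusted p = 0.0227, limma). Uhrf1, which brings the maintenance methyltransferase to replicated DNA, gave 11.07 and 10.69 in Dicer cKO pools and 10.15, 10.21 and 10.51 in control pools (0.59 ± 0.13 (SE); adjusted p = 0.0270, limma). Pool 10 was again the highest for both. Without Dicer cKO pool 10 the adjusted p-values were 0.246 for Dnmt3b and 0.303 for Uhrf1 (limma). Without control pool 7 they were 0.0767 and 0.0965 (limma). Dnmt3b was also lost without control pool 11 and Uhrf1 without control pool 9, at adjusted p-values of 0.0599 and 0.0851 (limma). With no intensity trend neither passed, at adjusted p-values of 0.0625 for Dnmt3b and 0.0874 for Uhrf1 (limma).

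Markers of the uterine compartments were present, with all 12 stromal, all 8 smooth muscle and 9 of 10 epithelial markers measured, Epcam being the exception. In bulk uteri, fewer cells of a type and less RNA per cell cannot be told apart. Beside the marker counts here and below, 2.68% of all measured genes rose and 3.88% fell. Stromal markers averaged 10.19 to 10.39 in Dicer cKO pools and 10.55 to 10.66 in control pools, and 4 of 12 fell (Vim, Thy1, Twist2 and Tcf21). Without Dicer cKO pool 10, 2 of the 12 fell, and without any 1 other pool 3 or 4 did, with Tcf21 not called in any of these fits. Epithelial markers averaged 8.91 to 8.96 in Dicer cKO pools and 9.15 to 9.49 in control pools, where 1 of 9 rose (Cldn4) and 4 fell (Krt8, Krt18, Krt19 and Cldn3). Without Dicer cKO pool 10 or pool 12 none rose and 2 fell, without control pool 7 or 9 the number that fell was 3, and without control pool 9 or 11 none rose. Smooth muscle markers averaged 10.98 to 11.09 in Dicer cKO pools and 10.98 to 11.06 in control pools, with no call.

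Markers of other cell types, some of them known to express Nnat or Dlk1, were read in the same way. Fat cell markers averaged 6.66 to 7.30 in Dicer cKO pools, against 7.50 to 8.22 in control pools, and 3 of 5 measured fell (Adipoq, Cfd and Cidec), with Fabp4 and Plin1 not measured. None of the 5 was called without Dicer cKO pool 10, where the difference of Cfd was -0.75 in place of -1.38. With control pool 7 left out 1 of the 5 fell, and with any other pool left out 2 did. Neural and glial markers averaged 5.95 to 6.02 in Dicer cKO pools and 5.87 to 6.00 in control pools, with no call among 4 measured, and Tubb3, Snap25, Elavl4 and Th were detected on no array. Neuroendocrine markers averaged 5.53 to 5.62 in Dicer cKO pools, against 5.62 to 5.88 in control pools, and Chga, Chgb and Scg2 were not measured. Only 2 were measured, Syp and Scg5, with no call. Scg5 was detected on 2 control arrays and on no Dicer cKO array. Macrophage markers averaged 8.08 to 8.41 in Dicer cKO pools and 8.0 to 8.11 in control pools, where 3 of 7 rose (Cd68, Lyz2 and C1qb) and 1 fell (Cd14). The number that rose was 2 without Dicer cKO pool 12, control pool 7 or control pool 9, where C1qb was not called. Skeletal muscle markers averaged 7.37 to 7.38 in Dicer cKO pools and 7.43 to 7.49 in control pools; 1 of 4 measured fell (Acta1; not called without Dicer cKO pool 10, adjusted p = 0.145, limma), and Myog and Myod1 were not measured. The part of these cell types in the results for Nnat, H19 and Mest was not tested.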

How the data were processed

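Total RNA of 5 uterine pools was hybridised to Illumina bead arrays. Each array file deposited by the authors holds, per probe, the mean intensity of its beads, the SD of the bead intensities, the number of beads and a detection score, a fraction from 0 to 1, per the file headers; the intensity values were neither background-subtracted nor normalized, as judged from the values. Per the submitters' processing notes, BeadStudio was used, version not stated. A further series table was not used, since its row identifiers are not those of the array files.

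Detection p was taken as 1 minus the score. Intensities were normexp-corrected with an offset of 16, quantile-normalized and log2-transformed (neqc, limma 3.58.1, R 4.3.3). The offset compresses differences of dim probes. Dicer cKO and control pools were compared with lmFit and eBayes with an intensity trend, 2-sided, with no covariate, and Benjamini-Hochberg adjustment over all 22845 probes with detection p under 0.05 on at least 2 of 5 arrays. Probes with an adjusted p under 0.05 are called. A gene stands for its brightest measured probe. An exact permutation test of 5 pools cannot go below p = 0.1 and was not used. Array names were updated through a RefSeq gene table of GRCm38.p6. The code was tested on simulated data. No batch information was found.

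The members and gene lists were chosen with earlier results of these data known. Named genes are all members, each called gene of the other lists and, where a list had none, its gene with the largest moderated t, except where a gene is not reported here; for Nnat, the 3 genes nearest in profile. Snrpn and Peg10 were named after their values were seen. The number of arrays limits the precision. Alternatives covered the background correction, scaling, detection filter, variance model, probe choice and each pool left out.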

Additional observations from a re-analysis of the deposited data

How the results depend on the processing

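No paired analysis was possible because the pool numbers of the Dicer cKO and control groups are all different. Over 14 alternative settings the members' probes had 201 values, of which 177 kept the direction and the side of the threshold, 16 lost a call, 3 gained one and 5 changed sign. Nnat was called in all 14, with differences from 1.07 to 1.80 and adjusted p-values from 0.00022 to 0.0125 (limma). Calls were lost for H19 probe 1440543 in 9 of 13 settings (differences 0.31 to 0.81, adjusted p 0.0145 to 0.419 over all 13, limma) and for Mest probe 3190408 in 7 of 13 (0.52 to 0.79, adjusted p 0.0104 to 0.334, limma). Calls were gained by leaving out Dicer cKO pool 12 for H19 probe 3290056 (0.81) and Mest probe 6770356 (0.63), and control pool 11 for Grb10 probe 4260433 (0.35). Sign changes came only from leaving out a pool. Dlk1 probe 4260241 ranged from -0.13 to 0.27, below 0 without Dicer cKO pool 10 (-0.13) or control pool 7 (-0.05). Meg3 probe 6940750 ranged from -0.25 to 0.09, above 0 without control pool 9 (0.090). Peg3 probe 5910241 ranged from -0.22 to 0.16, above 0 without Dicer cKO pool 12 (0.16) or control pool 7 (0.02). The count of member genes that rose was 1 under every other setting and 1 to 3 with a pool left out. In the other lists of neighbours, imprinted genes, imprint maintenance and partners, 4 genes rose, against 2 with no intensity trend and 0 to 5 with a pool left out, and 3 fell, against 0 to 5. Of all measured probes 1340 were called, against 356 to 1235 with a pool left out. The lowest of these counts came without Dicer cKO pool 10, and the count without Dicer cKO pool 12 was far higher. Both of these fits leave 1 Dicer cKO pool, assumed to vary like the controls. The other lists held 21 measured neighbours, 23 other imprinted genes, 9 imprint maintenance genes and 19 partners. Beside the counts of these lists and of the markers below, 2.68% of all measured genes rose and 3.88% fell. Of the fat cell markers, 3 fell, against 0 with no intensity trend or a robust prior. Under every other setting that kept all pools 2 fell, with Cidec not called. Of the epithelial markers 4 fell, against 2 with no intensity trend and 3 with median scaling or no detection filter. The 1 skeletal muscle call was lost with no intensity trend. With 5 arrays, small differences of dim probes could not be resolved.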

Other observations

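The proteins that Grb10, Sgce and Nnat work with were read as lists of their own. Beside the counts of these lists, 2.68% of all measured genes rose and 3.88% fell. Of 7 insulin and IGF1 receptor genes and adaptors around Grb10, all were measured and none was called, and the strongest statistic was that of the adaptor Grb14 (-0.28 ± 0.13 (SE); adjusted p = 0.264, limma). Of 11 genes of the dystrophin-glycoprotein complex, 8 were measured and none was called. Of 5 genes of the calcium pump that neuronatin is linked to, and its regulators, 4 were measured and 1 rose. This was Atp2a1, the fast muscle calcium pump, at 0.53 ± 0.14 (SE; adjusted p = 0.0488, limma), and its call was lost with any 1 pool left out.

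Gsg1l, Erfe and Igsf9 had the log2 profiles over the 5 arrays most like that of Nnat among 11641 genes, at distances of 0.288, 0.312 and 0.362, against a median distance of 1.72. They were chosen for this likeness, so their differences carry no test of their own. Gsg1l, an accessory subunit of glutamate receptors, gave 7.01 and 6.64 in Dicer cKO pools, against 5.20, 5.68 and 5.45 in control pools. Erfe, a hormone that lowers hepcidin, gave 6.85 and 6.50 in Dicer cKO pools and 4.74, 5.15 and 5.11 in control pools. Igsf9, an immunoglobulin superfamily adhesion protein, gave 9.34 and 8.89 in Dicer cKO pools and 7.78, 7.78 and 7.97 in control pools. All 3 were higher in pool 10 than in pool 12, as Nnat was.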
